A study of Homo sapiens with 6 samples.

Results

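Absorptive enterocytes are the cells of the intestinal lining that digest and take up nutrients. A set of 9 genes typical of them was listed for AGS cells in which beta-catenin was silenced, and 8 of the 9 are described here: CREB3L3, LGALS4, VIL1, APOA4, APOB, ANPEP, DPP4 and SI. They are 8 of 18417 genes with a row (a transcript cluster, the set of probes for a gene) that is paired with exactly 1 gene symbol. FABP1, the gene of the liver fatty acid binding protein, is not analysed here because its row is paired with a second symbol as well. For each gene the row with the highest mean over the arrays was used, a choice that mattered for APOA4, which has 2 rows. CREB3L3 and LGALS4 were selected on their difference between CTNNB1 siRNA and control siRNA in these same arrays, so their values are a description and no test is given for them. The other 6 genes were listed as textbook enterocyte genes, with earlier results of these data known.

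AGS, a human gastric adenocarcinoma line, received either CTNNB1 siRNA, which targets the beta-catenin mRNA, or control siRNA, a non-targeting one. RNA was taken 48 hours later, and each group held 3 Affymetrix Human Gene 1.0 ST arrays, titled as biological replicates. All 6 samples come from this single cell line. Since no label ties the replicates to separate cultures, the spread behind each p-value is that of these samples and may be technical.

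The brush border of an enterocyte is a carpet of microvilli whose actin cores are bundled by villin (VIL1). Its outer face carries peptidases and disaccharidases such as aminopeptidase N (ANPEP), dipeptidyl peptidase 4 (DPP4) and sucrase-isomaltase (SI). Absorbed fat leaves the cell in chylomicrons, particles built on apolipoprotein B (APOB) and carrying apolipoprotein A-IV (APOA4). CREB3L3, also called CREBH, is a transcription factor of liver and small intestine that is held in the endoplasmic reticulum membrane and released by proteolysis, and in mice it activates genes of lipid handling, Apoa4 among them. LGALS4 encodes galectin-4, a lectin of the gut epithelium that takes part in apical membrane traffic. In the intestine, beta-catenin signalling is strongest in the crypt, below the zone where enterocytes mature.

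The promoters of CREB3L3 and LGALS4 are shown because these 2 genes were the higher pair after CTNNB1 siRNA, and those of APOA4 and SI because these genes were not. Each line gives the 250 bases before the annotated start of the gene in RefSeq on GRCh38.p14, 5′ to 3′ on the strand of the gene. The windows are chr19:4153381-4153630 (plus strand) for CREB3L3, chr19:38812946-38813195 (minus strand) for LGALS4, chr11:116823305-116823554 (minus strand) for APOA4 and chr3:165078497-165078746 (minus strand) for SI. Capitals mark matches, on either strand, to short motifs of gut and Wnt transcription factors: GTTAAT for the HNF1 factors, AAAGTCC for the HNF4 factors, TTTAT for the CDX factors, GATAA for the GATA factors, CTTTGAT for the TCF/LEF factors with CTTTGTT as its other form, TGACGT for the CRE and TATAAA for the TATA box.
CREB3L3: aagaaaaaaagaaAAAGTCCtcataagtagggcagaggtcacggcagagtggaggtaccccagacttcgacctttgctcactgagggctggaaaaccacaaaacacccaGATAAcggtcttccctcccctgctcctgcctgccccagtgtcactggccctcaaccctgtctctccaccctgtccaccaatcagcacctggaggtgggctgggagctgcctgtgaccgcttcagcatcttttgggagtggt
LGALS4: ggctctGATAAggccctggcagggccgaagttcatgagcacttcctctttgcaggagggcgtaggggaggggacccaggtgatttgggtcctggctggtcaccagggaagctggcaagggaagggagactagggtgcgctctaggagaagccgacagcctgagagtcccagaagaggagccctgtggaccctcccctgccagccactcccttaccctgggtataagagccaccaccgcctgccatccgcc
APOA4: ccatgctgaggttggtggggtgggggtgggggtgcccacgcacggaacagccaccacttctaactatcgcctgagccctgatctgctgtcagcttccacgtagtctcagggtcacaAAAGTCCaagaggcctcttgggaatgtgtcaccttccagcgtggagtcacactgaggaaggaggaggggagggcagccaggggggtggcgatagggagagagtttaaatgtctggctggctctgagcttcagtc
SI: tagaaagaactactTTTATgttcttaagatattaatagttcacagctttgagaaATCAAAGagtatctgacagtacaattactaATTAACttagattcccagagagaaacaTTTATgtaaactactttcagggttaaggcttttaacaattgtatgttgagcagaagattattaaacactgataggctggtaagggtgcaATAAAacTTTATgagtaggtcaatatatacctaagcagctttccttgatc

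The CREB3L3 window holds AAAGTCC, 237 bases before the start, and GATAA, 141 bases before it. The LGALS4 window holds GATAA, 244 bases before the start, and none of the other motifs. AAAGTCC also occurs in the APOA4 window, 134 bases before the start. The SI window holds TTTAT at 4 places and, on the opposite strand, GTTAAT and the motif CTTTGAT at 1 place each. Windows of this length hold GATAA in 20.4% of all 35116 promoters in the RefSeq table, AAAGTCC in 3.2%, TTTAT in 32.7%, GTTAAT in 6.23% and a TCF/LEF motif in 6.6%. Each match is a match of letters only, and whether a factor binds there was not tested. The CDX and TATA box motifs share letters, so their matches can overlap.

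The silencing of CTNNB1 was checked first. CTNNB1 was at a log2 expression of 10.27, 10.78 and 10.58 on CTNNB1 siRNA replicates 1 to 3, against 11.92, 11.76 and 11.75 on control siRNA replicates 1 to 3, which leaves 41.5% of the control level (log2 difference -1.27, SE 0.17, adjusted p = 0.232 in limma). Array medians were 5.38 to 5.46. CTNNB1 siRNA replicate 1 stood apart, with a Pearson correlation across rows of 0.962 to 0.965 with each other array, against 0.983 to 0.988 among the other arrays. Its values in the 8 genes are therefore shown separately. Epithelial marker genes were bright on all 6 arrays (EPCAM, a surface protein gene of epithelia, at 11.34 to 11.66).

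CREB3L3 and LGALS4 lay above all 3 controls on each of the CTNNB1 siRNA arrays, with mean log2 differences of 1.83 and 1.52. VIL1, the villin gene, was bright in both groups and was clearly higher on 1 array only. ANPEP was slightly higher in the CTNNB1 siRNA group, and APOA4, APOB, DPP4 and SI differed by less than 0.1 log2 units between the group means. The mean over the arrays of 5 of the 8 genes (APOA4, APOB, ANPEP, DPP4 and SI) lay among the dimmest 40% of tested rows, under a log2 value of 5.36, where RMA compresses differences towards 0. Of the enterocyte genes, VIL1, LGALS4 and CREB3L3 were thus the ones whose mean lay above that level in these gastric cancer cells. CREB3L3 was close to it on the control siRNA arrays, at 5.38, 6.04 and 5.56. The digestive and chylomicron genes gave little signal in either group. Brightness also depends on the probes of a row, so levels are not compared between genes. In bulk RNA, fewer cells that express a gene and less RNA per cell cannot be told apart.

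**Figure D1:**
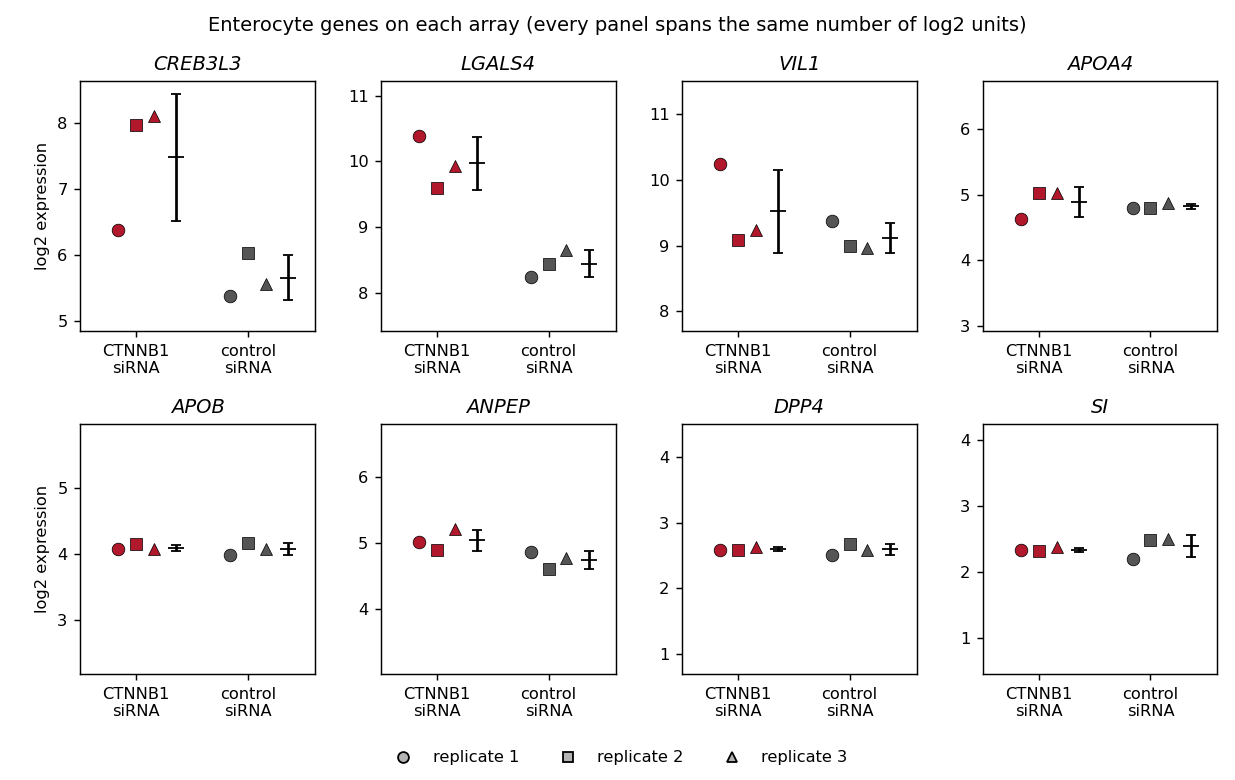
Log2 expression (y axis) of the 8 enterocyte genes on each array, CTNNB1 siRNA left and control siRNA right in every panel; symbols mark replicates 1 to 3, and the bar beside them is the mean ± SD of the 3 arrays. CREB3L3 and LGALS4 are higher on all 3 CTNNB1 siRNA arrays, VIL1 on replicate 1 alone, and APOB, DPP4 and SI lie level in both groups.

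CREB3L3, the transcription factor of the set (transcript cluster 8024754), was at 6.38, 7.97 and 8.11 on CTNNB1 siRNA replicates 1 to 3, against 5.38, 6.04 and 5.56 on control siRNA replicates 1 to 3. Replicates 2 and 3 of the CTNNB1 siRNA group were the high samples, replicate 1 lay 0.336 above the highest control, and the groups did not overlap. The means were 7.48 ± 0.962 in CTNNB1 siRNA cells and 5.66 ± 0.342 in control siRNA cells (SD, n = 3 each). The log2 difference was 1.83 (SE 0.44), a 3.54-fold difference. Leaving out any 1 array moved it between 1.51 (CTNNB1 siRNA replicate 3 left out) and 2.38 (CTNNB1 siRNA replicate 1 left out). The CTNNB1 siRNA arrays thus differed among themselves by 1.73 log2 units for this gene, close to the size of the difference between the groups.

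LGALS4 (transcript cluster 8036591) was at 10.39, 9.59 and 9.93 on CTNNB1 siRNA replicates 1 to 3, against 8.25, 8.44 and 8.65 on control siRNA replicates 1 to 3. All 3 CTNNB1 siRNA arrays were high, replicate 1 most of all, with a gap of 0.944 between the lowest of them and the highest control. The means were 9.97 ± 0.4 in CTNNB1 siRNA cells and 8.44 ± 0.199 in control siRNA cells (SD, n = 3 each). This log2 difference of 1.52 (SE 0.22), or 2.88-fold, stayed between 1.31 and 1.71 when any 1 array was left out. CREB3L3 and LGALS4 thus had their highest and lowest CTNNB1 siRNA arrays in different order: replicate 1 was lowest for CREB3L3 and highest for LGALS4. Over all tested rows, 0.036% were higher by at least 1.5 log2 units without overlap of the groups, and both genes, which were selected on this difference, are among them.

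VIL1 (transcript cluster 8048319) was at 10.24, 9.09 and 9.23 on CTNNB1 siRNA replicates 1 to 3, against 9.38, 9.0 and 8.96 on control siRNA replicates 1 to 3. Replicate 1 was the high sample in each group, and the groups overlapped. The log2 difference was 0.41 (95% confidence interval -0.29 to 1.1) with an adjusted p of 0.816 in limma, and it was 0.044 without CTNNB1 siRNA replicate 1. VIL1 was thus bright with either siRNA, and its difference did not pass the test.

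The brush border enzymes came next. ANPEP (transcript cluster 7991335) was at 5.02, 4.90 and 5.21 on CTNNB1 siRNA replicates 1 to 3, against 4.86, 4.60 and 4.77 on control siRNA replicates 1 to 3. The groups were apart by only 0.0417, less than the range of either group. Its log2 difference of 0.30 (95% confidence interval -0.043 to 0.64) had an adjusted p of 0.816 in limma. DPP4 was at 2.58, 2.58 and 2.63 on CTNNB1 siRNA arrays, against 2.51, 2.68 and 2.59 on control siRNA arrays, with a log2 difference of 0.0054 (95% confidence interval -0.29 to 0.30). SI was at 2.33, 2.31 and 2.37 on CTNNB1 siRNA arrays, against 2.19, 2.48 and 2.49 on control siRNA arrays, with a log2 difference of -0.053 (95% confidence interval -0.38 to 0.27). The groups overlapped for DPP4 and SI, whose means lay at the percentiles 3.8 and 1.9 of all rows, so neither group gave a clear signal for them. Their adjusted p values in limma were 0.993 and 0.942.

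The lipid transport genes were level as well. APOB (transcript cluster 8050619) was at 4.07, 4.15 and 4.07 on CTNNB1 siRNA replicates 1 to 3, against 3.98, 4.16 and 4.08 on control siRNA replicates 1 to 3, a log2 difference of 0.021 (95% confidence interval -0.28 to 0.32, adjusted p = 0.976 in limma). The brighter row of APOA4 (transcript cluster 8077192) was at 4.63, 5.02 and 5.02 on CTNNB1 siRNA arrays, against 4.80, 4.79 and 4.87 on control siRNA arrays, a log2 difference of 0.069 (95% confidence interval -0.29 to 0.43, adjusted p = 0.93 in limma). Its other row, with a mean of 4.40 against 4.86, differed by 0.0097. On both rows the lowest of the 6 arrays was CTNNB1 siRNA replicate 1, the array on which CREB3L3 was lowest in its group, and without it the brighter row differed by 0.20.

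Of the 6 genes that this comparison had not picked out, 0 passed in limma at an adjusted p under 0.05 and 0 had an unadjusted p under 0.05. Over all tested rows 0.00514% passed (1 of 19460) and 5.64% had an unadjusted p under 0.05. The groups did not overlap, with CTNNB1 siRNA higher, for 3 of the 8 genes (CREB3L3, LGALS4 and ANPEP) and for 6.81% of all tested rows, and 2 of the 3 had been picked for it. The median log2 difference of the 6 genes not picked was 0.045, and 0.039 without CTNNB1 siRNA replicate 1, against -0.0045 and -0.0021 over all tested rows. With the picked pair included it was 0.18, a value that their selection raises.

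**Figure D2:**
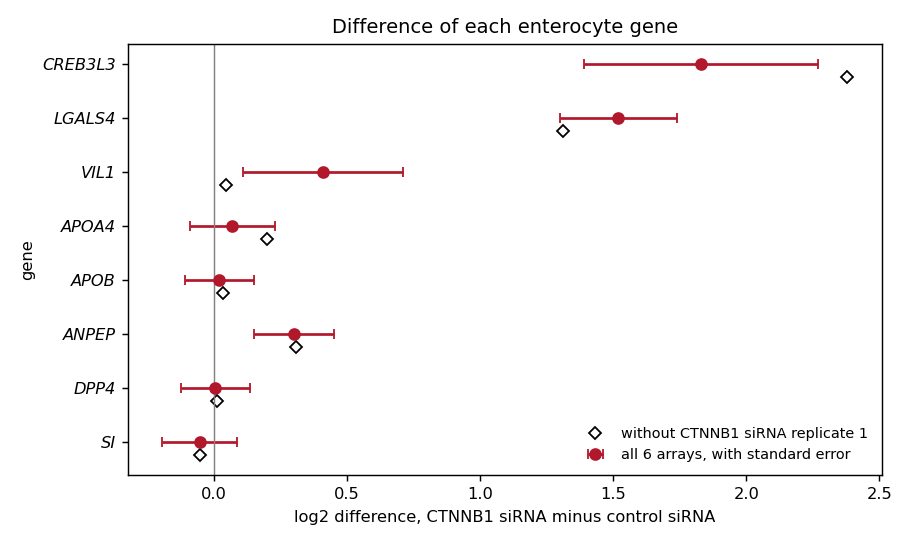
Log2 difference (x axis), CTNNB1 siRNA minus control siRNA, of each of the 8 genes. Circles with bars show the difference ± its standard error over all 6 arrays, and diamonds the difference without CTNNB1 siRNA replicate 1: CREB3L3 moves to 2.38 and VIL1 to 0.044, while APOB, DPP4 and SI stay near 0.

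The measured relatives of CREB3L3 all had overlapping groups. CREB3L1, CREB3L2, CREB3 and CREB3L4 encode other transcription factors of the CREB3 family that are anchored in the endoplasmic reticulum, ATF6 is a sensor of the unfolded protein response, and MBTPS1 and MBTPS2 encode the site-1 and site-2 proteases that release such factors. Of these 7 genes, 0 were higher or lower without overlap, against 6.81% higher and 6.8% lower over all tested rows, and in limma 0 passed and 0 had an unadjusted p under 0.05. The log2 difference was 0.43 for CREB3L1, and 0.73 without CTNNB1 siRNA replicate 1. Leaving out any 1 array moved it between -0.088 and 0.81. CREB3L1 was at 6.45, 8.25 and 7.76 on control siRNA replicates 1 to 3. For CREB3L2 the log2 difference was -0.10, and 0.34 without CTNNB1 siRNA replicate 1. CREB3 differed by 0.05 (0.12 without that array) and CREB3L4 by 0.04. ATF6 was lowest on CTNNB1 siRNA replicate 1, at 9.38 against 10.38 and 10.22 on replicates 2 and 3, and CREB3L2 and CREB3L1 were also lowest in their group on that replicate. The difference of ATF6 was -0.32, and -0.014 without that array.

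Genes that CREB3L3 is known to act on, mostly in mouse liver, were taken as a list of 20, of which 17 were measured. Of these, 3 were higher without overlap of the groups, 2 were lower and 12 overlapped, against 6.81% higher and 6.8% lower over all rows. In limma 0 passed and 3 had an unadjusted p under 0.05, against 5.64% of all tested rows. CIDEC, which encodes a protein of lipid droplets, was at 6.27, 6.00 and 6.29 on CTNNB1 siRNA arrays, against 4.93, 5.28 and 5.28 on control siRNA arrays. Its log2 difference was 1.03 (95% confidence interval 0.65 to 1.40), with an adjusted p of 0.388 in limma. NPC1L1, the cholesterol uptake transporter, which in mice CREB3L3 holds down, differed by 0.48, and FGF21, the gene of a liver hormone, by 0.42 at dim levels of 4.25 to 4.82. The lower genes were G6PC1 (-0.23) and FADS1 (-0.24), both dim. The apolipoprotein genes APOA1, APOA5 and APOC3 overlapped between the groups, with log2 differences of 0.088, 0.19 (0.068 without CTNNB1 siRNA replicate 1) and -0.01, as did APOA4 above. The median of the list was 0.088, with 0.012 when CTNNB1 siRNA replicate 3 was left out.

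Galectins are lectins that bind beta-galactosides, and 12 of 16 listed members of the family were measured. Besides LGALS4, which was picked on this comparison, 3 of the other 11 were higher without overlap of the groups and 0 lower, against 6.81% and 6.8% of all tested rows. LGALS3, the gene of galectin-3, was at 9.58, 9.23 and 9.54 on CTNNB1 siRNA arrays, against 8.88, 8.64 and 8.90 on control siRNA arrays, a log2 difference of 0.64 (95% confidence interval 0.28 to 1.0). LGALS1, the gene of galectin-1, was at 10.98, 10.80 and 10.75 on CTNNB1 siRNA arrays, against 10.37, 10.53 and 10.22 on control siRNA arrays, a log2 difference of 0.47 (95% confidence interval 0.13 to 0.81). Both had an adjusted p of 0.816 in limma. LGALS2, a galectin gene of the gut, differed by 0.46 at dim levels. Among the other bright galectin genes, LGALS8 differed by -0.15 (-0.011 without CTNNB1 siRNA replicate 1), and LGALSL by -0.51 with all arrays and -0.01 without CTNNB1 siRNA replicate 1, on which it was lowest. Over the 11 genes the median was -0.023, and 0.076 without CTNNB1 siRNA replicate 1. In limma 0 of the 11 passed and 3 had an unadjusted p under 0.05, against 5.64% of all tested rows.

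Further absorptive genes were taken as 4 lists of textbook genes: brush border structure, brush border hydrolases, lipid uptake and chylomicron assembly, and nutrient and ion transport. Like all gene lists here, they were written with earlier results of these data known, so their counts are not independent evidence. With all 9 genes of the enterocyte set left out, FABP1 included, 64 of 70 listed genes were measured. The groups did not overlap for 13 of the 64 (20.3%) with CTNNB1 siRNA higher and for 0 with it lower, against 6.81% and 6.8% of all tested rows. In all, 0 of the 64 passed in limma and 7 had an unadjusted p under 0.05, against 5.64% of all tested rows. The dimmest 40% of rows held 40 of the 64. The median difference was 0.11. Without CTNNB1 siRNA replicate 1 the median was 0.12 and 22 genes were higher without overlap, against 13.2% of all rows higher and 12.5% lower.

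The genes of microvillus structure, VIL1 included, had the largest median of the 4 lists. Of 15 measured, 13 had a positive and 2 a negative difference, and the median log2 difference was 0.26. The groups did not overlap for 6, all higher, against 6.81% higher and 6.8% lower over all tested rows. CDHR5, a protocadherin that links microvilli at their tips, was at 7.15, 7.33 and 7.51 on CTNNB1 siRNA arrays, against 6.18, 6.79 and 6.85 on control siRNA arrays. Its log2 difference was 0.73 (95% confidence interval 0.24 to 1.21). PLS1, which encodes the actin bundling protein plastin-1 of microvilli, was at 9.65, 9.24 and 9.15 on CTNNB1 siRNA arrays, against 8.61, 9.04 and 8.58 on control siRNA arrays, a log2 difference of 0.60. CALML4, a light chain of the brush border myosin MYO7B, was at 7.35, 7.53 and 7.70 on CTNNB1 siRNA arrays, against 6.81, 6.92 and 7.06 on control siRNA arrays, also a log2 difference of 0.60. All 3 had an adjusted p of 0.816 in limma. In the list 4 of the 15 genes had an unadjusted p under 0.05 in limma, against 5.64% of all tested rows.

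The other 3 lists stood closer to 0. All 13 measured hydrolases, ANPEP, DPP4 and SI included, were among the dimmest 40% of rows. Their median was 0.046, and -0.021 without control siRNA replicate 1. ANPEP was the 1 gene of the list whose groups did not overlap. Of 22 measured lipid genes, APOA4 and APOB included, 18 had a positive and 4 a negative difference, with a median of 0.083. Of the 22, 3 were higher without overlap: NPC1L1 (0.48), the fatty acid transporter gene SLC27A4 (0.35) and PLA2G12B (0.22). The lipid median was 0.034 without CTNNB1 siRNA replicate 3. Of 20 transporter genes, 14 had a positive and 6 a negative difference, with a median of 0.079 (0.14 without control siRNA replicate 3), and 4 were higher without overlap, all of them dim. Over all tested rows 6.81% were higher without overlap. SLC5A1, the intestinal glucose transporter SGLT1, was at 5.07, 4.93 and 5.35 on CTNNB1 siRNA arrays, against 4.36, 4.62 and 4.73 on control siRNA arrays. Its log2 difference of 0.55 was measured at dim levels. No hydrolase had an unadjusted p under 0.05 in limma, and 2 lipid genes and 1 transporter gene had, against 5.64% of all tested rows.

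**Figure D3:**
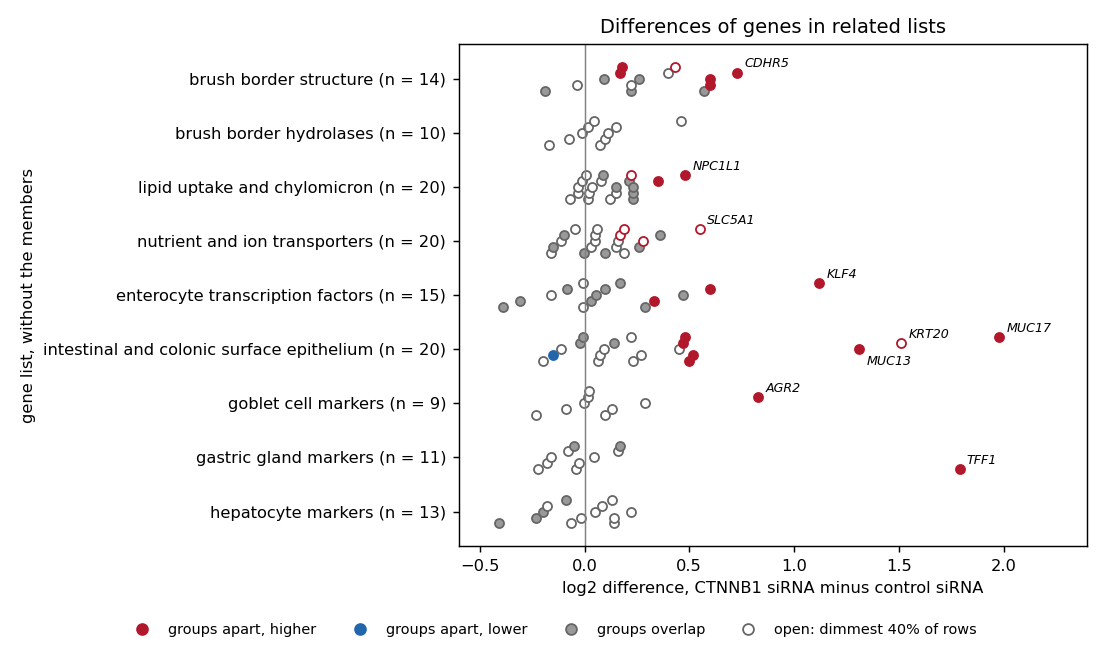
Log2 difference (x axis), CTNNB1 siRNA minus control siRNA, of the genes in 9 lists, without the 8 genes described individually. Each point is a gene, red where the groups do not overlap and CTNNB1 siRNA is higher, blue where it is lower and grey where they overlap, and open points are among the dimmest 40% of rows; the genes of brush border structure reach 0.73, the hydrolases are all dim, and MUC17, KRT20 and MUC13 lie furthest to the right in the surface list.

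Of the transcription factors that direct enterocyte genes, 15 of 20 listed were measured, 12 of them brighter than the dimmest 40%. KLF4, a factor of differentiated epithelium, was at 8.75, 7.88 and 8.13 on CTNNB1 siRNA arrays, against 7.10, 7.19 and 7.11 on control siRNA arrays, a log2 difference of 1.12 (adjusted p = 0.747 in limma). PPARG, a nuclear receptor of lipid metabolism, differed by 0.60 and ELF3, an epithelial ETS factor, by 0.33, and both were higher without overlap. CDX2, the main intestinal homeobox factor, was at 8.32, 7.89 and 8.09 on CTNNB1 siRNA arrays, against 7.94, 7.55 and 7.40 on control siRNA arrays, so the groups overlapped, with a log2 difference of 0.47. GATA4 and GATA6, which bind GATAA-like sites, differed by -0.31 and -0.39, and by -0.089 and -0.12 without CTNNB1 siRNA replicate 1. HNF4G and CDX1 differed by -0.0052 and 0.032. The median of the 15 was 0.054, and 0.21 without CTNNB1 siRNA replicate 1. In all, 3 of the 15 were higher without overlap and 0 lower, against 6.81% and 6.8% of all tested rows. In limma 0 of the 15 passed and 3 had an unadjusted p under 0.05, against 5.64% of all rows.

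Surface genes of intestinal and colonic epithelium, some of which were listed with their results known, had a median log2 difference of 0.22 over 20 measured genes. Of the 20, 7 were higher without overlap of the groups, 1 was lower (GUCA2B, by -0.15) and 12 overlapped, against 6.81% higher and 6.8% lower over all tested rows. In limma 0 passed and 8 had an unadjusted p under 0.05, against 5.64% of all rows. Since part of the list was chosen with its results known, these counts are not independent evidence. MUC17, a membrane mucin gene of the intestinal surface, was at 6.35, 6.65 and 7.21 on CTNNB1 siRNA arrays, against 4.71, 4.69 and 4.87 on control siRNA arrays. MUC13, another membrane mucin gene, was at 11.37, 10.79 and 10.91 on CTNNB1 siRNA arrays, against 9.58, 9.88 and 9.69 on control siRNA arrays. KRT20, a keratin gene of mature intestinal cells, was at 5.36, 5.76 and 6.42 on CTNNB1 siRNA arrays, against 4.54, 4.13 and 4.36 on control siRNA arrays. For each of these 3 genes every CTNNB1 siRNA array lay above the controls, with log2 differences of 1.98, 1.31 and 1.51 (MUC17, MUC13 and KRT20) and adjusted p of 0.0935, 0.307 and 0.575 in limma. CDH17, the liver-intestine cadherin, was bright in both groups and differed by -0.023, and by 0.18 without CTNNB1 siRNA replicate 1.

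Markers of other cell types were read in the same way, against 6.81% higher and 6.8% lower without overlap over all tested rows. The groups did not overlap, with CTNNB1 siRNA higher, for 1 of 9 goblet cell genes (AGR2, 0.83) and 1 of 6 Paneth cell genes (DEFA5, 0.39). The same held for 1 of 10 enteroendocrine genes (NEUROG3, 0.21) and 0 of 13 hepatocyte genes. It also held for 1 of 11 genes of the gastric gland list (TFF1, 1.79, and 1.24 without CTNNB1 siRNA replicate 1). TFF1 is a gene of the gastric surface rather than of the glands. Of 10 fibroblast and endothelial genes 2 were higher (COL1A1, 0.36, and PECAM1, 0.39) and 2 lower (VWF, -0.16, and KDR, -0.14), and 1 of 8 immune genes was higher (CD3E, 0.064). The mean of the hepatocyte list matters because CREB3L3 and APOB are liver genes too. This mean was 4.75 to 4.84 on CTNNB1 siRNA arrays, against 4.66 to 5.01 on control siRNA arrays. That of the gastric gland list was 4.39 to 4.55 on CTNNB1 siRNA arrays, against 4.27 to 4.42 on control siRNA arrays. Its median log2 difference was -0.04, with 4 genes positive and 7 negative. The mean of the goblet cell list was 4.62 to 4.74 on CTNNB1 siRNA arrays, against 4.51 to 4.65 on control siRNA arrays. Its median log2 difference was 0.021, with 6 genes positive and 3 negative. The hepatocyte list was not uniformly dim: ALB, the albumin gene, lay at a mean of 2.51 over the arrays, while the row means were 9.18 for the apolipoprotein gene APOA2 and 7.93, 7.90 and 7.41 for the fibrinogen genes FGA, FGB and FGG, with overlapping groups for each of them. In the immune list the leukocyte gene PTPRC lay at 2.69, while the row mean of LYZ, the lysozyme gene, was 12.93. CD68, a lysosomal protein gene of macrophages, had a row mean of 8.27. Its difference was 0.53 (0.78 without CTNNB1 siRNA replicate 1) with overlapping groups. LYZ is in the Paneth list as well. The 2 bright genes of that list, LYZ and PLA2G2A (row mean 11.94), each differed by -0.27, with overlapping groups. Without CTNNB1 siRNA replicate 1 they differed by -0.091 and 0.019. DEFA5, the Paneth gene that was higher without overlap, was dim. The general epithelial markers had a median of 0.33 over 9 genes, with KRT19 (0.96, and 0.54 without CTNNB1 siRNA replicate 1), CLDN4 (0.67, and 0.42 without it) and ELF3 (0.33) higher without overlap. Their list mean was 9.78 to 10.09 on CTNNB1 siRNA arrays, against 9.51 to 9.61 on control siRNA arrays, and its part in the difference of the enterocyte genes was not tested.

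The arrays of the CTNNB1 siRNA group divided the set. Relative to the control mean, CREB3L3 lay 0.72 higher on replicate 1 and 2.31 and 2.45 higher on replicates 2 and 3. LGALS4 lay 1.94 higher on replicate 1 and 1.15 and 1.48 higher on replicates 2 and 3. VIL1 lay 1.13 higher on replicate 1, and its values on replicates 2 and 3 were -0.028 and 0.12. Replicate 1 was thus the low array for CREB3L3 and the high array for LGALS4 and VIL1.

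**Figure D4:**
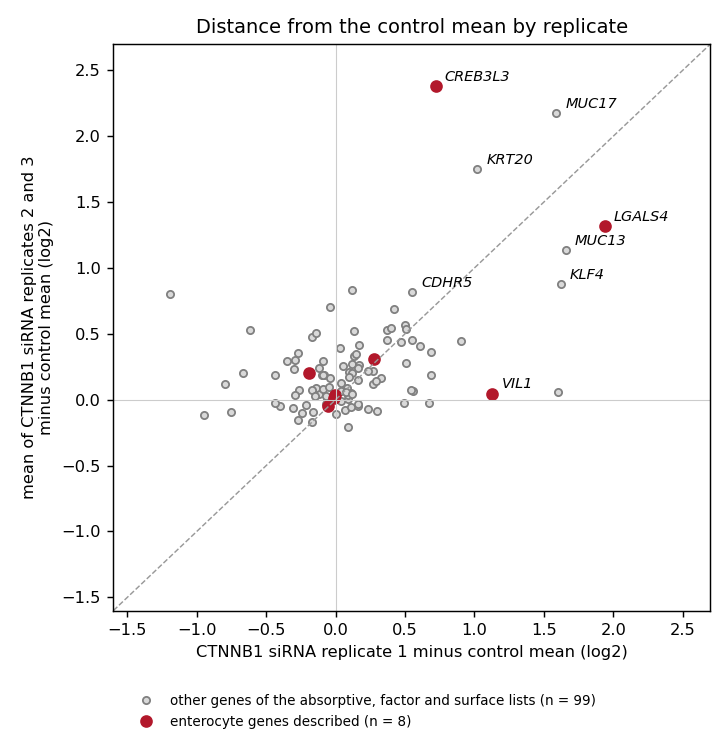
Distance from the control mean on CTNNB1 siRNA replicate 1 (x axis, log2) and on average on CTNNB1 siRNA replicates 2 and 3 (y axis, log2), with the 8 enterocyte genes in red, other genes of the absorptive, factor and surface lists in grey and equality as the dashed line. CREB3L3 lies above the line (0.72 on replicate 1), LGALS4 below it (1.94 on replicate 1), and VIL1 far to the right near a height of 0.

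The genes whose levels followed CREB3L3 most closely over the 6 arrays, among 9073 genes of at least median brightness, were RHPN2 (Pearson r 0.993), PTAFR (0.984), HEG1 (0.982), CEACAM5 (0.979) and TJP3 (0.978). CEACAM5, the gene of carcinoembryonic antigen, was at 9.23, 10.27 and 10.48 on CTNNB1 siRNA arrays, against 8.13, 9.01 and 8.80 on control siRNA arrays, with replicate 1 lowest in each group. Those closest to LGALS4 were TMEM38A (0.989), MUC13 (0.985), ALPP (0.983), CDC42BPG (0.982) and LIME1 (0.981). ALPP, an alkaline phosphatase gene, has near-identical relatives whose transcripts its probes may not tell apart. No gene was in both sets, and the correlation between CREB3L3 and LGALS4 themselves was 0.674. These correlations share the difference between the groups and carry no test.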

How the data were processed

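Per the labels' protocols, 500 ng of total RNA from each of 6 AGS samples went onto an Affymetrix Human Gene 1.0 ST array. The authors deposited log2 values per transcript cluster. The submitters' processing notes name RMA and Affymetrix Expression Console 1.1, and their settings, build and annotation are not stated. Of 33297 rows, 19460 with exactly 1 symbol in the platform's annotation were tested; 1754 with several symbols and 12083 with none listed were left out. Symbols were updated by gene ID to RefSeq GRCh38.p14 for 19429 rows.

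Groups were compared, CTNNB1 siRNA minus control siRNA, with limma 3.58.1 (lmFit, eBayes) in R 4.3.3. P-values were 2-sided, adjusted by Benjamini-Hochberg over these rows, with a threshold of 0.05. The fit was tested on simulated data. The genes and lists were chosen with earlier results of these data known. Named genes are the 8 genes, CTNNB1, up to 3 genes per list with the largest difference among those without overlap, any gene of the CREB3, CREB3L3 target, galectin and transcription factor lists, and the 5 genes most like CREB3L3 or LGALS4. CDH17, EPCAM, CDH1, CLDN3, PTPRC, LYZ, PLA2G2A, CD68, ALB, APOA2, FGA, FGB, FGG, GUCA2B, VWF and KDR were named after their values were seen. Alternatives were array weights, a replicate block, no dim rows, trend and robust eBayes, quantile normalization, all rows, 1 array left out, and the mean of both APOA4 rows. The number of arrays limits the precision.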

Additional observations from a re-analysis of the deposited data

How the results depend on the processing

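CREB3L3 stayed between 1.51 and 2.38 and LGALS4 between 1.28 and 1.71 under every alternative, and the other 6 genes stayed uncalled. Differences near 0 changed sign. With 1 array left out APOB ranged from -0.026 to 0.063 and DPP4 from -0.037 to 0.048: APOB was -0.0066 without CTNNB1 siRNA replicate 2 and -0.026 without control siRNA replicate 1, and DPP4 was -0.0022 with array weights, -0.011 without CTNNB1 siRNA replicate 3 and -0.037 without control siRNA replicate 1. Over all rows 1 was called, against 13 with array weights, 0 with all rows, 0 without the dimmest 40% and 0 to 10 with 1 array left out; the cause was not tested. The median of the 8 genes was 0.12 to 0.21 with 1 array left out and 1.52 without dim rows, where 3 of them remain. List medians were 0.19 to 0.35 for brush border structure with 1 array left out, and without dim rows, so over fewer genes, 0.23 for lipid uptake, 0.24 for CREB3L3 targets, 0.47 for galectins (-0.003 with all 12, LGALS4 included) and 0.48 for surface genes. A gene near the brightness limit can pass it through its higher group, so these medians support nothing. With the replicate number as a block 0 rows were called in limma (1123 at an unadjusted p under 0.05). Same-numbered arrays deviated together with r of 0.092, 0.120 and 0.098, each array's highest with the other group, a hint from the data and not the design. Depth is not defined for arrays; dim rows carry little signal over background.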
